A study of Mus musculus with 40 samples.

Results

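Dppa2, Dppa4, Morc1, Dppa3, Dppa5a, Pramel6 and Pramel7 are genes of germ cells and early embryos whose expression in mouse goes with low DNA methylation, and they were taken by name as 7 of the 24499 genes counted in single cells of mouse blastocysts. All 7 also had a length-scaled level, among 17280 genes, and 6 of them, Pramel7 excepted, had allele-specific values. The cells were 40 single female cells of 13 F1 embryos from natural matings of C57BL/6J mothers with CAST/EiJ fathers, so that every cell carried a C57BL/6J maternal and a CAST/EiJ paternal genome and the classes differed in neither genotype nor treatment. They comprised 10 epiblast (Epi) cells of 2 embryos and 13 primitive endoderm (PrE) cells of 3 embryos at E4.0, and 14 inner cell mass (ICM) cells of 7 embryos and 3 trophectoderm (TE) cells of 3 embryos at E3.5. Inner cell masses were freed of outer cells by immunosurgery. An earlier study of the same cross supplied all 3 TE cells and, among the ICM cells, 3 of 14.

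Dppa2 and Dppa4 are SAP-domain proteins that bind chromatin together, keep developmental promoters free of DNA methylation in mouse embryonic stem cells and can switch on genes of the 2-cell embryo. Morc1 is an ATPase that silences transposons in male germ cells. Dppa3 (Stella) is a maternal protein that guards DNA methylation in the zygote and restrains the methylation cofactor Uhrf1, Dppa5a is an RNA-binding protein of the KH-domain family, and Pramel6 and Pramel7 are leucine-rich repeat proteins of the PRAME family, of which Pramel7 drives the breakdown of Uhrf1 protein in mouse embryonic stem cells. Methylation itself was not measured in these cells.

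Total counts per cell ran between 6013161 and 11236299 in Epi, 1019112 and 12689903 in PrE, 2671531 and 12833051 in ICM and 5462656 and 8097555 in TE cells. The 8 trophectoderm markers averaged at least 8.03 on the log2(RPRT + 1) scale in TE cells and at most 5.98 in any other cell, and the 8 epiblast markers averaged at least 6.22 in Epi cells and at most 3.18 in PrE cells (RPRT is the number of reads per retrotranscribed length, scaled to the mapped reads of the cell). ICM cells held both sets, with epiblast markers between 2.62 and 7.30 and primitive endoderm markers between 0.76 and 5.42, and with trophectoderm markers between 1.57 and 5.98. The 6 oocyte and polar body markers reached at most 3.70, and the 3 cumulus markers with values reached at most 2.38. The oocyte and polar body average was 2.51 to 3.70 in the 4 cells that the study lists as under 70% mapped, 3 PrE cells of embryo 14 and 1 ICM cell of embryo 10. It was at most 1.18 in the other 36, among them the 3 TE and 3 ICM cells of the earlier study, whose mapping rate is unknown here. One PrE cell, cell 59 of embryo 15, had the highest epiblast (3.18) and the lowest primitive endoderm (3.70) marker average of all 13 PrE cells, so results that rest on it are given with and without it. The classes were set in the study from a group of lineage factors that held Dppa3, whose levels are therefore a description, and the other 6 genes were tested. That group also held Nanog, Gata4 and Gata6, which are among the epiblast and primitive endoderm markers averaged here. The marker gap between Epi and PrE cells is therefore no independent check of the classes.

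The 7 genes lie in 4 places of the genome (GENCODE M21, GRCm38, the build mm10). Dppa4 (chromosome 16, 48283733 to 48294237) and Dppa2 (chromosome 16, 48303908 to 48319723) are neighbours on the plus strand, 9.7 kb apart, and Morc1 (chromosome 16, 48431237 to 48630900) starts 111.5 kb beyond Dppa2 with 1 coding gene between them. Pramel7 (chromosome 2, 87489087 to 87497093, minus strand) and Pramel6 (chromosome 2, 87506565 to 87510872, plus strand) are also neighbours, 9.5 kb apart and transcribed away from each other. Dppa3 lies on chromosome 6 (122626410 to 122630272) and Dppa5a on chromosome 9 (78367052 to 78368177, minus strand). No annotated exon of another gene overlapped an exon of any of the 7.

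Levels differed by orders of magnitude between the genes. On the RPRT scale, which allows genes to be set side by side, Dppa5a had the highest median of the 7 in all 4 classes and Pramel7 the lowest in Epi, ICM and TE cells. Dppa5a medians were 3280 in Epi, 1961 in PrE, 3162 in ICM and 2793 in TE cells, above at least 99.7% of all genes with a level in each class. Dppa3 came second in PrE, ICM and TE cells, whereas in Epi cells its median of 308 was close to that of Dppa4 (322). Pramel6 followed Dppa3 in ICM (285) and TE cells (820) and last of the 7 in PrE cells (0.33).

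**Figure D1:**
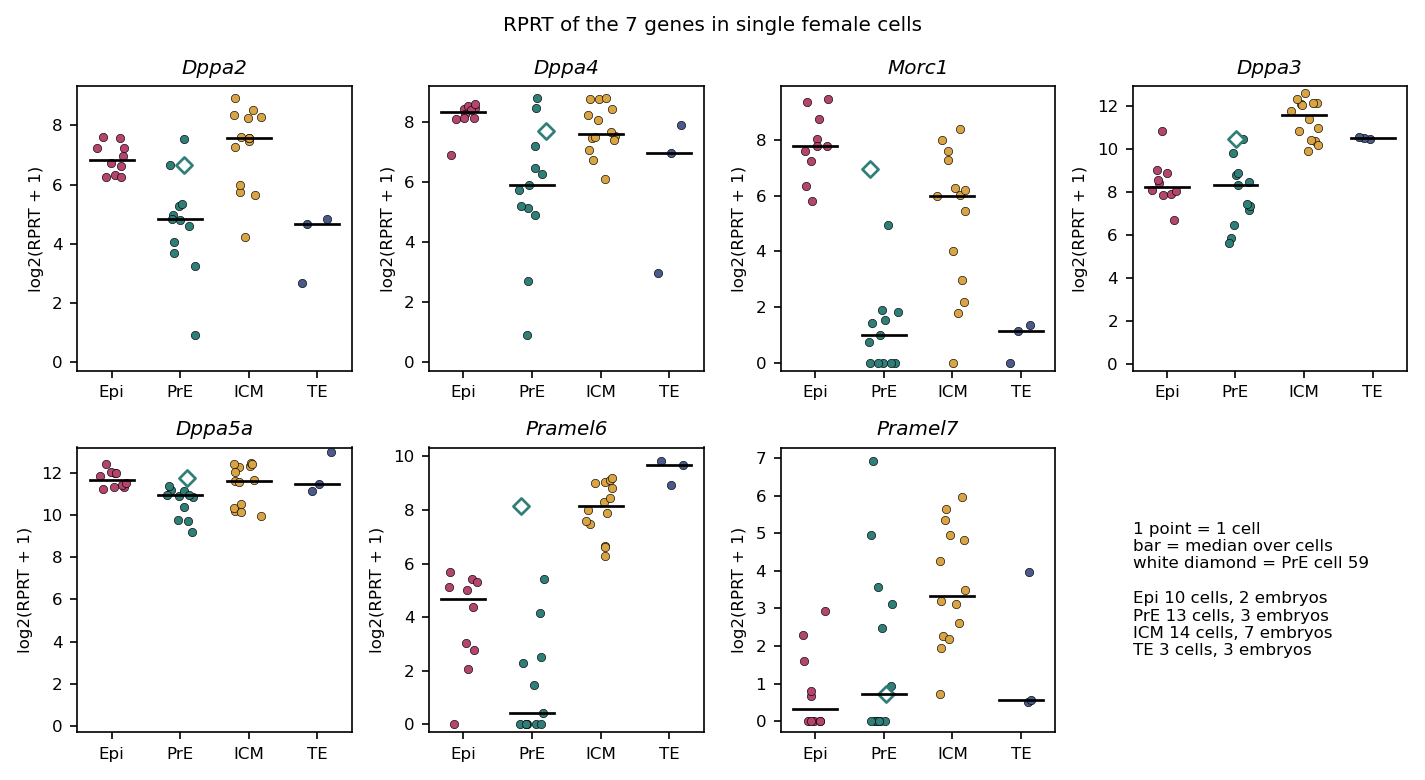
RPRT on the log2(RPRT + 1) scale (vertical axes) of each of the 7 genes in single Epi, PrE, ICM and TE cells (horizontal axes). Each point is a cell, bars are medians over cells and the white diamond is PrE cell 59, which stands above the other 12 PrE cells for Morc1 and Pramel6.

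Morc1 was high in Epi cells, spread widely in ICM cells and was low in TE cells and in most PrE cells. It was above an RPRT of 1, the study's limit for an expressed gene, in 10 of 10 Epi, 6 of 13 PrE, 13 of 14 ICM and 2 of 3 TE cells, and above an RPRT of 4, the study's limit for a well expressed gene, in 10, 2, 11 and 0 of them. RPRT in Epi cells ran between 55.4 and 714 with a median of 221. In PrE cells it was 126 in cell 59 and 29.9 in a cell of embryo 16, and between 0 and 2.73 in the other cells, and the median without cell 59 was 0.83. ICM cells spread over the whole range, between 0 and 340 with a median of 63.6, and the TE cells of embryos 2, 4 and 5 had 0, 1.22 and 1.55.

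Embryo 14 gave cells of both E4.0 classes. Its 9 Epi cells had Morc1 RPRT between 55.4 and 714, against 0 to 1.89 in its 7 PrE cells. These are cells of 1 embryo, put into classes by their expression. The share of all genes that part them in this way was not computed. The 3 PrE cells with the high oocyte marker average all had a Morc1 and Pramel6 RPRT of 0, and the other 4 had 0 to 1.89 for Morc1 and 0 to 0.33 for Pramel6. For tests, counts were summed per embryo and class and given as CPM (counts scaled to the library total) after TMM scaling. Morc1 had 285 and 539 CPM in the Epi embryos, against 0.65, 163 and 8.80 CPM in PrE embryos 14, 15 and 16. The embryos did not overlap, yet the fitted log2 fold change of 2.84 ± 1.57 (SE) did not pass (edgeR quasi-likelihood test, adjusted p = 0.678). Without cell 59 it was 6.94 (adjusted p = 0.297). limma-voom gave 6.04 with embryo as a block (adjusted p = 0.0110) and 5.96 without (adjusted p = 0.0191), so the call depended on the test.

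In the ICM, Morc1 CPM ran between 5.78 and 373 with a median of 69 over 7 embryos, against 0, 0.55 and 1.20 in TE embryos 2, 4 and 5. A count of 0 in TE embryo 2 allowed up to 3 counts of counting error alone. That is 0.55 CPM of the library total before TMM scaling, and so not on the same scale as the other CPM values. The ICM embryos were all above the TE embryos, and Morc1 was higher in ICM than in TE by 7.45 ± 1.85 (SE) on the log2 scale (edgeR, adjusted p = 0.0335). It was the only tested member called in this comparison, 1 of 6, beside 2.14% of 12599 genes called higher and 4.23% called in either direction. The call was lost without embryo 2 (6.61, adjusted p = 0.0654), 4 (7.65, adjusted p = 0.0548) or 5 (8.29, adjusted p = 0.0902). Leaving out embryo 4 removed its TE and its ICM sum together. With the earlier study's cells alone, 3 ICM cells of embryos 4, 8 and 12 and the 3 TE cells, the value was 6.26 and did not pass (adjusted p = 0.315).

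The median of all genes was itself 0.70 higher on the log2 scale in ICM than in TE, so that Morc1 stood 6.75 above the median gene. Between Epi and ICM, Morc1 had 285 and 539 CPM in Epi embryos against the ICM values above, with 1 ICM embryo inside the Epi range, and the fitted difference of 2.08 ± 1.23 (SE) did not pass (edgeR, adjusted p = 0.697). Between PrE and ICM it was -0.76 ± 1.22 (SE, edgeR, adjusted p = 0.936), and -4.86 without cell 59 (adjusted p = 0.220).

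Dppa2 was expressed in nearly every cell, above an RPRT of 1 in 10 of 10 Epi, 12 of 13 PrE, 14 of 14 ICM and 3 of 3 TE cells. RPRT ran between 75.2 and 196 in Epi cells (median 114), between 0.91 and 187 in PrE cells (median 27.7) and between 17.8 and 489 in ICM cells (median 189), and was 5.45, 27.8 and 24.2 in the TE cells of embryos 2, 4 and 5. The order of the class means over embryos was ICM (201 ± 134, SD, n = 7), Epi (116 ± 15.6, n = 2), PrE (55.3 ± 29.3, n = 3) and TE (19.125 ± 12, n = 3), and the embryo means of neighbouring classes overlapped for ICM with Epi and for PrE with TE but not for Epi with PrE.

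ICM embryos fell apart for Dppa2. The single cell of embryo 13 had an RPRT of 17.8 and the 3 cells of embryo 12 had 48.7 to 62.9, whereas the 10 cells of the other 5 embryos had 152 to 489. Cells of embryos 12 and 13 had trophectoderm marker averages between 4.10 and 5.98, and the cell of embryo 4, with an RPRT of 152, had 5.79. Across the 14 ICM cells, which share 7 embryos, Dppa2 ran against those markers (Spearman rho -0.78) and with the epiblast markers (0.55). Whether trophectoderm-type RNA has a part in this was not tested.

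In CPM, Dppa2 ran between 35.9 and 609 in ICM embryos with a median of 272, against 7.98, 49.8 and 60.1 in TE embryos. Those values overlapped through embryo 13, and the log2 fold change of 3.07 ± 0.92 (SE) missed the threshold (edgeR, adjusted p = 0.0592). Without embryo 13 it was 3.26 (adjusted p = 0.0440). Over all alternatives its adjusted p ran between 0.0254 and 0.483. Dppa2 had 197 and 166 CPM in Epi embryos, against 35.1, 150 and 147 in PrE embryos, which did not overlap (0.71 ± 1.001, SE, edgeR, adjusted p = 0.974). Against ICM, Dppa2 was at -0.86 ± 0.94 in Epi (edgeR, adjusted p = 0.896) and at -1.57 ± 0.83 in PrE (adjusted p = 0.584).

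Dppa4 was above an RPRT of 1 in 10 of 10 Epi, 12 of 13 PrE, 14 of 14 ICM and 3 of 3 TE cells. Its RPRT ran between 118 and 388 in Epi (median 322), between 0.85 and 446 in PrE (median 58.8) and between 68.2 and 445 in ICM cells (median 193), and was 239, 124 and 6.89 in the TE cells of embryos 2, 4 and 5. Epi embryos had 400 and 517 CPM, against 50.8, 216 and 386 CPM in PrE embryos, again without overlap but with a log2 fold change of 1.08 ± 0.91 (SE) that did not pass (edgeR, adjusted p = 0.891). Against ICM, Dppa4 was at 0.36 ± 0.79 in Epi (edgeR, adjusted p = 0.966) and at -0.72 ± 0.72 in PrE (adjusted p = 0.871). ICM against TE gave 0.82 ± 0.73, close to the median gene (edgeR, adjusted p = 0.472).

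**Figure D2:**
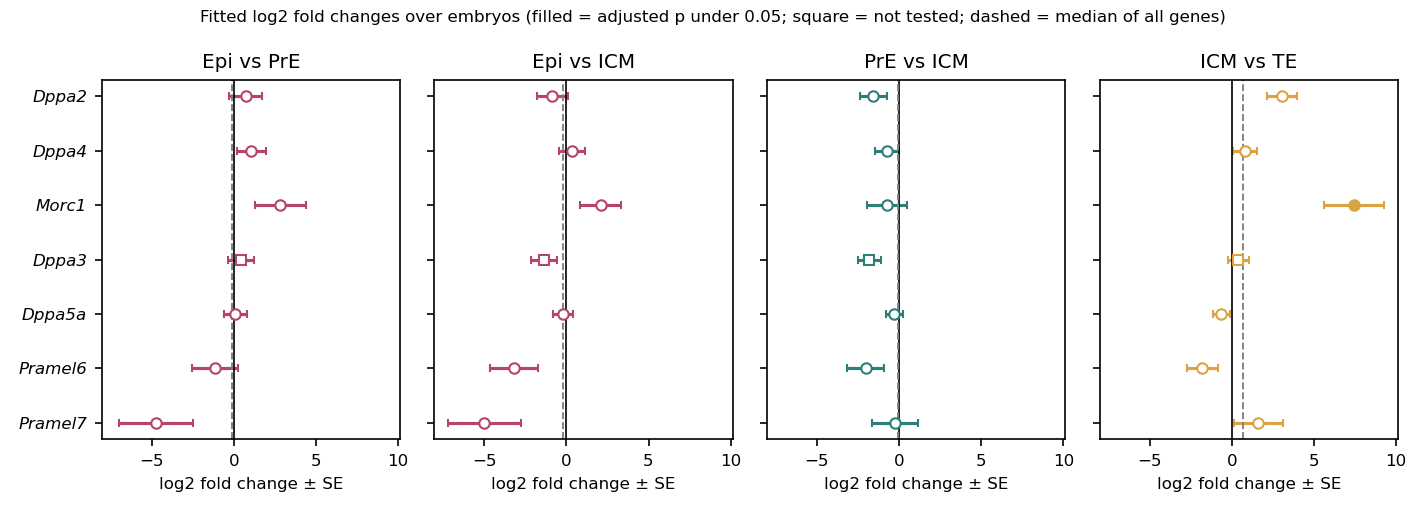
Fitted log2 fold changes (horizontal axes, points with SE bars) of the 7 genes (rows) in 4 comparisons of classes over embryos. Only Morc1 between ICM and TE (7.45) is filled as past an adjusted p of 0.05, and the dashed line at 0.70 in that panel is the median of all genes.

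In CPM, Pramel6 ran the other way to Morc1 and Dppa2 between ICM and TE. It was above an RPRT of 1 in 9 of 10 Epi, 6 of 13 PrE, 14 of 14 ICM and 3 of 3 TE cells. RPRT was at most 50.7 in Epi cells (median 25.5) and between 77.2 and 582 in ICM cells (median 285), with 916, 485 and 820 in the TE cells of embryos 2, 4 and 5. In PrE cells, cell 59 stood at 280 while the other 12 had 0 to 41.5, and within embryo 14 the 9 Epi cells had a median of 19.9, against at most 0.33 in the 7 PrE cells. The order of the class means over embryos was TE, ICM, PrE and Epi with cell 59 and TE, ICM, Epi and PrE without it.

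Pramel6 had 159 to 734 CPM in ICM embryos (median 412), against 1607, 853 and 2188 CPM in TE embryos 2, 4 and 5. These CPM values did not overlap. On the RPRT scale the embryo means did overlap. There the highest ICM embryo (521) and the lowest TE embryo (485) were both embryo 4, whose ICM cell was above its TE cell. The log2 fold change was -1.80 ± 0.96 (SE), or -2.50 from the median gene, and did not pass (edgeR, adjusted p = 0.237). DESeq2, whose scaling put the median gene at -0.07, gave -3.19 (adjusted p = 0.0283). Epi embryos, with 26.3 and 71.6 CPM, were below every ICM embryo (-3.19 ± 1.47, SE, edgeR, adjusted p = 0.674).

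PrE embryos 14, 15 and 16 had 0.05, 301 and 23.3 CPM of Pramel6, and the fit against ICM gave -2.04 ± 1.13 (SE, edgeR, adjusted p = 0.613). Without cell 59 it was -5.34 (adjusted p = 0.119), and limma-voom gave -6.90 with embryo as a block (adjusted p = 0.0169) and -6.92 without (adjusted p = 0.0166). Epi against PrE gave -1.14 ± 1.39 (SE, edgeR, adjusted p = 0.963) and turned to 2.15 without cell 59 (adjusted p = 0.644), so no direction is given for it.

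Pramel7, the neighbour of Pramel6, had the lowest median of the 7 in Epi, ICM and TE cells and its own highest class median in the ICM. It was above an RPRT of 1 in 3 of 10 Epi, 5 of 13 PrE, 13 of 14 ICM and 1 of 3 TE cells. The highest RPRT was 6.67 in Epi cells and 61.3 in ICM cells, and the TE cells of embryos 2, 4 and 5 had 0.43, 14.5 and 0.46. The 4 PrE cells of embryo 16 had 7.68 to 122, against at most 4.58 in the 9 PrE cells of embryos 14 and 15, cell 59 included. With cell 59, the highest PrE embryo of Pramel6 was instead embryo 15. Without cell 59, embryo 16 was the highest for both genes. Its 4 cells had 1.74 to 41.5 of Pramel6, against 4.75 in the remaining cell of embryo 15.

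In CPM, Pramel7 had 1.31 and 0.65 in Epi embryos, against 1.53, 2.02 and 76.6 in PrE embryos and 0.98 to 71.7 in ICM embryos (median 18.2). The log2 fold change was -4.75 ± 2.25 between Epi and PrE (SE, edgeR, adjusted p = 0.649), but -0.83 without PrE embryo 16, and -5.00 ± 2.22 between Epi and ICM (adjusted p = 0.658). DESeq2 called the second, at -5.00 (adjusted p = 0.0158). PrE against ICM gave -0.25 ± 1.38 (SE, edgeR, adjusted p = 0.984), and -4.17 without embryo 16. ICM against TE gave 1.61 ± 1.49 (SE, edgeR, adjusted p = 0.490), and 5.53 without embryo 4.

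Dppa3 was found in all 40 cells, at an RPRT of at least 49.7. It ran between 103 and 1855 in Epi cells (median 308), between 49.7 and 1427 in PrE cells (median 317) and between 957 and 6159 in ICM cells (median 3084), and was 1442, 1445 and 1505 in TE cells. The Epi cell of embryo 17 had 1855, whereas the 9 Epi cells of embryo 14 had at most 524, and likewise the PrE cells of embryo 14 had at most 354. Fitted differences, which were not tested, were -1.38 between Epi and ICM and -1.82 between PrE and ICM on the log2 scale. The first was -3.20 without embryo 17 and -0.60 without embryo 14, and the second -2.61 without embryo 15 and -1.30 without embryo 14. Between ICM and TE the value was 0.39, and -0.98 by DESeq2 scaling, so no direction is given.

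Dppa5a varied least between classes, and all 40 cells had an RPRT of at least 579. RPRT ran between 2424 and 5372 in Epi, 579 and 3465 in PrE, 977 and 5711 in ICM and 2216 and 8197 in TE cells, which overlapped in every pair of classes. The log2 fold changes were 0.10 ± 0.70 between Epi and PrE (SE, edgeR, adjusted p = 1), -0.20 ± 0.62 between Epi and ICM (adjusted p = 0.980), -0.29 ± 0.53 between PrE and ICM (adjusted p = 0.949) and -0.64 ± 0.51 between ICM and TE (adjusted p = 0.418). The first 3 changed sign in at least 1 alternative. The last was -1.34 from the median gene and kept its direction in 18 of 18.

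Dppa5a has close copies elsewhere in the genome, and its counts cannot be fully separated from theirs. Of the stretches of 50 bases in its transcript, 38.6% also occurred in transcripts of other genes, among them the processed pseudogene Gm6083 on chromosome 5 and Pigp, an enzyme subunit of GPI anchor synthesis on chromosome 16. Of the rest of the table, Gm6083 (Pearson r 0.997) and Pigp (0.985) were the genes most like Dppa5a across the 15 sums of embryo and class. The Gm6083 count was 12.2% to 16.6% of the Dppa5a count in every one of the 40 cells and the Pigp count 5.67% to 11.1%, while Dppa5a itself ran between 1418 and 41815 counts. Of the 50-base stretches of Dppa5a, 11.6% occurred in Gm6083. The 2 stretches below were picked to differ at 1 base, so they are an example and do not measure how close the copy is. Each is 30 bases in transcript sense. They come from Dppa5a (chr9:78367861-78367890, GRCm38, minus strand) and from Gm6083 (chr5:29538281-29538310, plus strand), with the base that differs in capitals.
Dppa5a: tcgaatgtctcacatCgagcaggtgagcca
Gm6083: tcgaatgtctcacatTgagcaggtgagcca

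**Figure D3:**
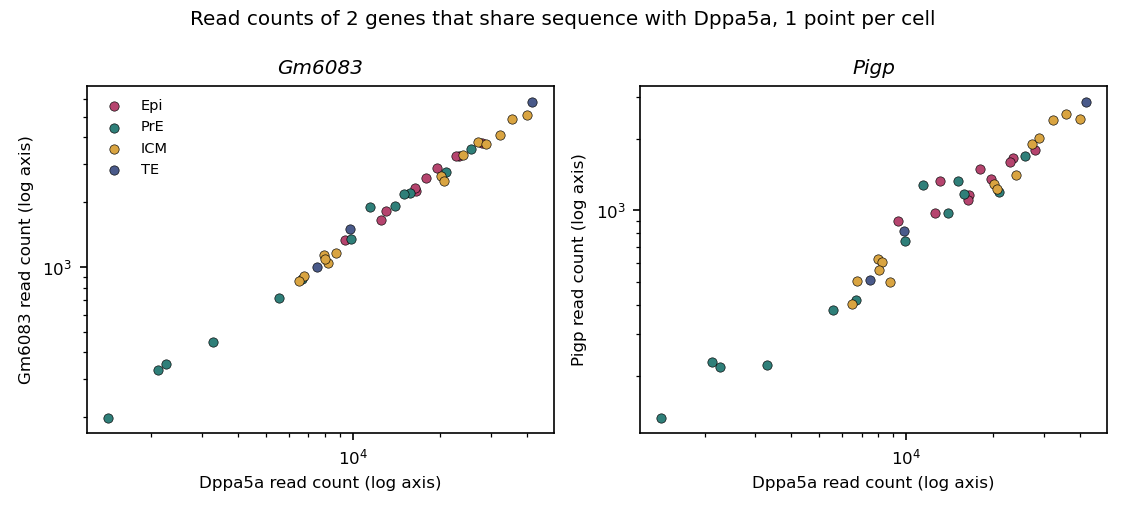
Read counts of Gm6083 (left) and Pigp (right) against those of Dppa5a in 40 single cells, both axes logarithmic, coloured by class. The points of all classes lie along 1 line, with Gm6083 at 12.2% to 16.6% of the Dppa5a count.

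Other members share sequence as well. In Dppa4, 35.9% of 50-base stretches of the last 3 kb occurred in other transcripts, in Dppa2 29.1% and in Dppa3 17.7%, mostly in processed pseudogenes (Gm9788 for Dppa2, Gm14058 for Dppa4, Dppa3-ps for Dppa3) that were not counted in the table. Pramel7 had 0.44%, and Morc1 and Pramel6 had none. How far this moved the levels or allelic ratios of Dppa2, Dppa3, Dppa4 and Dppa5a was not tested.

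Counted over the 6 tested genes, differences between classes were few at this number of embryos. Between Epi and PrE, 0 of 6 and 0% of 12599 genes were called by edgeR, with 965 genes and 1 member (Pramel7) at an unadjusted p under 0.05, 419 genes called by DESeq2 and 341 by limma-voom with embryo as a block. The embryo values of Dppa2, Dppa4 and Morc1 were higher in Epi without overlap, 3 of 6 beside 13.5% of all genes, and those of Pramel7 lower, 1 of 6 beside 13%. For Pramel7 that gap was only 1.31 against 1.53 CPM, and its embryo means in RPRT overlapped (Epi highest 1.46, PrE lowest 0.65). The median log2 fold change of the 6 was 0.40, against -0.11 for all genes.

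Between Epi and ICM, edgeR called 0 of 6 members and 0.00794% of genes (1 gene), with 916 genes and 2 members (Pramel6 and Pramel7) at an unadjusted p under 0.05 and 513 genes called by DESeq2. Pramel6 did not overlap, 1 of 6 beside 3.05% of genes lower without overlap. Between PrE and ICM, edgeR called 0 of 6 and 0% of genes, with 1160 genes and 0 members at an unadjusted p under 0.05 and 349 genes called by DESeq2. All 6 members had negative log2 fold changes there, with a median of -0.74 against -0.05 for all genes, and all 6 overlapped, beside 4.13% of genes without overlap. Between ICM and TE, Morc1 was higher without overlap in CPM (5.18% of genes) and Pramel6 lower without overlap in CPM (2.37%), though not in RPRT. The median of the 6 was 1.22 against 0.70. Comparisons that share a class share its embryos.

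Across the 15 sums, the genes most like Morc1 were LOC105246506 (Pearson r 0.948) and the pluripotency factors Nanog (0.932) and Sox2 (0.912). Within the 13 PrE cells, Morc1 ran with the epiblast marker average (Spearman rho 0.86, and 0.83 without cell 59), and within the 14 ICM cells the value was 0.53. Pramel6 was most like Gabarapl2, an autophagy gene (0.960), Calcoco2, an autophagy receptor (0.931), and Fbxo15, an F-box gene of pluripotent cells (0.925). In the 13 PrE cells, which share 3 embryos, Pramel6 also ran with the epiblast markers (0.78, and 0.71 without cell 59) and against the primitive endoderm markers (-0.72, and -0.64 without cell 59).

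Dppa2 was most like the gap junction gene Gja1 (0.864), D230025D16Rik (0.8496) and the receptor gene Ephb4 (0.840). For Dppa4 the highest values were of Cenpt (0.872), Btf3l4 (0.871) and Mrpl49 (0.870), for Dppa3 of Calcoco2 (0.918), Guca1a (0.907) and Tceb1 (0.873), for Pramel7 of B230219D22Rik (0.820), Skil (0.789) and Gm16513 (0.787), and after Gm6083 and Pigp the gene most like Dppa5a was Dynll1 (0.930). By Spearman rho in place of Pearson r, Dppa5a, Morc1 and Dppa2 each kept 2 of their 3 genes, Pramel6 and Pramel7 1, and Dppa3 and Dppa4 none. Between members, r was 0.74 for Dppa2 with Morc1 and 0.80 for Dppa3 with Pramel6 (Spearman rho 0.71 and 0.36), and 0.39 for the adjacent pair Dppa2 and Dppa4 and 0.16 for the adjacent pair Pramel6 and Pramel7. The sums share embryos, classes and libraries, so these values are descriptions.

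**Figure D4:**
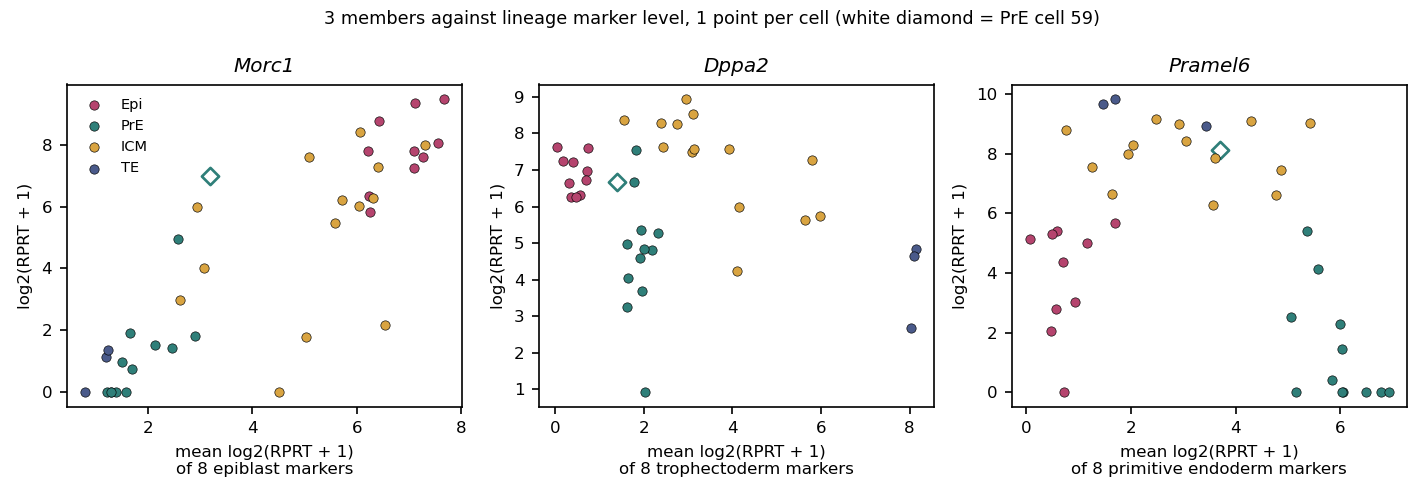
Level of Morc1, Dppa2 and Pramel6 (vertical axes, log2(RPRT + 1)) against the average of 8 epiblast, trophectoderm or primitive endoderm markers (horizontal axes, log2(RPRT + 1)), 1 point per cell and coloured by class. Morc1 is high in Epi cells, whose epiblast markers average at least 6.22, and the white diamond is PrE cell 59.

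Allelic ratios give the paternal share of reads over sites that differ between C57BL/6J and CAST/EiJ, and are given here for cells with an RPRT above 4. The files hold no allelic depth, so the total read count of the gene is set beside them, and with 1 direction of cross the parent and the strain cannot be told apart. The median autosomal gene had a ratio of 0.492 in Epi, 0.493 in PrE, 0.5 in ICM and 0.508 in TE cells. Among single autosomal values, 48.0% in Epi, 47.4% in PrE, 44.0% in ICM and 57% in TE cells were monoallelic by the study's limits (0.15 and below, or 0.85 and above).

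Dppa2 was read mostly from the maternal allele. Its median ratio was 0.222 in Epi (10 cells, all below 0.5), 0.205 in PrE (9 of 10 below 0.5) and 0.225 in ICM cells (14 of 14), and 1 cell in each of these classes was monoallelic. The TE cells of embryos 2, 4 and 5 had 1, 0.118 and 0.561 from only 39, 363 and 201 counts. Dppa5a had medians of 0.313 in Epi, 0.347 in PrE, 0.342 in ICM and 0.431 in TE cells, with no monoallelic cell, and Dppa3 medians of 0.544, 0.475, 0.530 and 0.377. All 7 ICM embryos had mean Dppa2 ratios under 0.5, and the share of genes for which this holds was not computed. By the median over ICM cells, 16.3% of autosomal genes stood lower than Dppa2.

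Dppa4 differed most between classes in its ratio. Monoallelic were 1 of 10 Epi cells, 9 of 12 PrE cells (6 maternal and 3 paternal) and 0 of 14 ICM cells. Median Dppa4 counts in those cells were 3698 in Epi, 605 in PrE and 2661 in ICM, and monoallelic values were more common at low counts in all autosomal genes (50.4% at 300 to 1000 counts and 8.1% from 3000 counts in PrE cells). Among cells with at least 1000 Dppa4 counts, ratios ran between 0.285 and 0.990 in 10 Epi cells, between 0.0019 and 0.236 in 5 PrE cells and between 0.266 and 0.675 in 13 ICM cells.

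The mean distance of the Dppa4 ratio from 0.5 was 0.404 ± 0.028 in PrE (SD, n = 3 embryos), against 0.136 ± 0.056 in ICM (n = 7), without overlap. An exact two-sided permutation test over embryos gave p = 0.0167, the smallest this design allows, and 0.0667 after Benjamini-Hochberg adjustment over 4 genes, a comparison chosen after the values were seen. Without the cells listed as under 70% mapped, 7 of 9 PrE cells and 0 of 13 ICM cells were monoallelic and the exact p was again 0.0167. For Dppa2, Dppa3 and Dppa5a the same exact tests gave p = 0.483, 0.15 and 0.683. The 2 TE cells with a Dppa4 ratio had 0.634 and 0.890.

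Morc1 was read mostly from the paternal allele in the ICM. Of 11 ICM cells, 9 had ratios above 0.5 and 6 were at 0.85 or above, with a median of 0.917 and 59 to 3831 counts, while 1 cell of embryo 12 had 0.0143. The Morc1 median stood above that of 89.3% of autosomal genes, and 13.5% of autosomal genes had an ICM median of at least 0.85. The cells of embryos 4 and 13 had Morc1 ratios of 1 from only 95 and 59 counts. Among autosomal ICM values from under 100 counts, 80.2% were monoallelic. For Morc1, the 10 Epi cells had a median of 0.596, 1 of them monoallelic, and 905 to 6667 counts. In 10 of the 11 ICM cells with ratios for all 3 genes of chromosome 16, Morc1 had a higher paternal share than Dppa2, as in 8 of 10 Epi cells. Dppa4 was above Dppa2 in 8 of these ICM and 10 of these Epi cells, and Morc1 above Dppa4 in 10 and 5. Only 16.3% of autosomal genes had a lower ICM median than Dppa2, and cells that share an embryo are not independent. Pramel6 spread between 0 and 0.965 in ICM cells (median 0.324, 4 of 14 monoallelic) and had 0.794, 0.116 and 0.0287 in the TE cells of embryos 2, 4 and 5, at 1150 to 9437 and 6225 to 7858 counts.

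**Figure D5:**
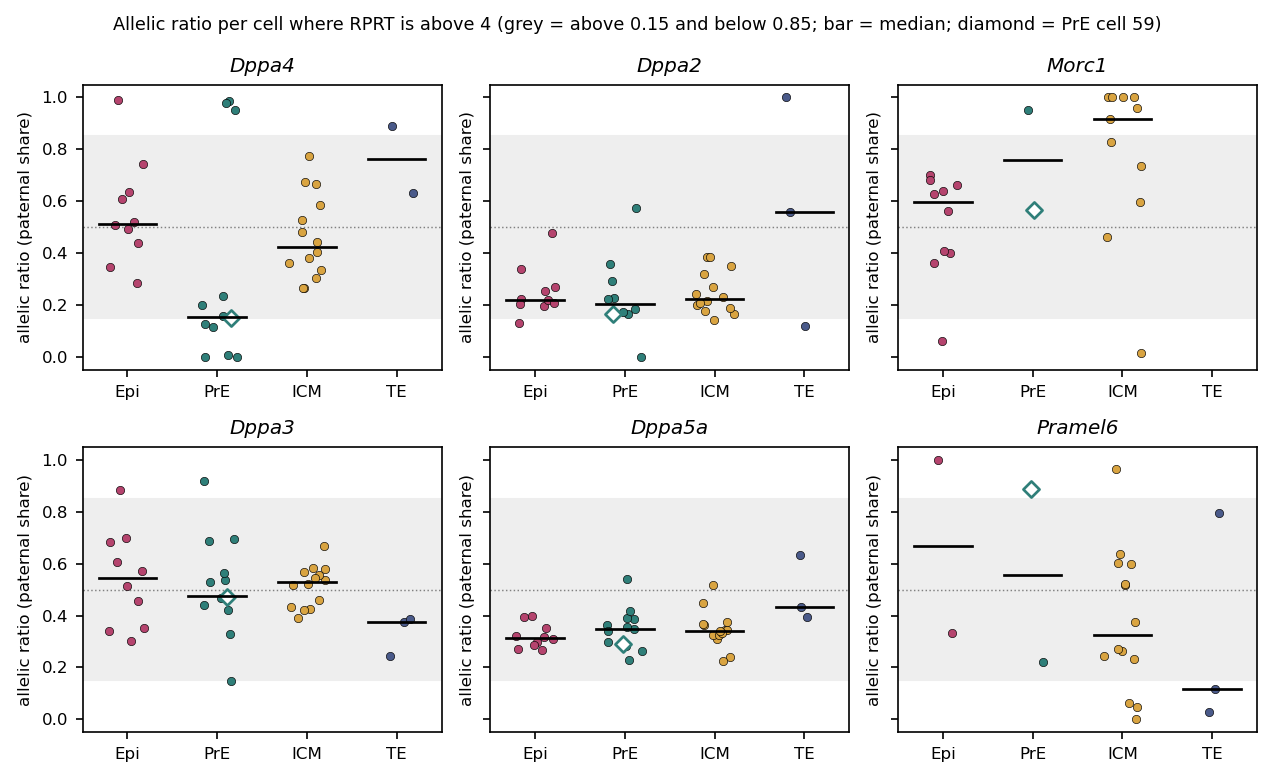
Allelic ratio (paternal share of reads, vertical axes) of 6 genes in single Epi, PrE, ICM and TE cells with an RPRT above 4. Bars are medians, the grey band is the biallelic range and the white diamond is PrE cell 59. Dppa4 lies outside the band in 9 of 12 PrE cells and Dppa2 sits near 0.2 in Epi, PrE and ICM cells.

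Related genes were described from lists. Of the 14 other PRAME family genes, 13 were counted and 8 tested. Over the 4 comparisons edgeR called 0 of them, with 11 values at an unadjusted p under 0.05, DESeq2 made 6 calls and limma-voom 0. The most abundant, Pramel5 and Pramel4, had 1.52 to 2.76 and 0.98 to 1.53 CPM in Epi embryos, 18.5 to 184 and 10.8 to 216 CPM in ICM embryos and 93.0 to 952 and 66.1 to 754 CPM in TE embryos. The log2 fold change was -5.10 ± 1.66 for Pramel5 and -6.20 ± 1.80 for Pramel4 between Epi and ICM (SE, edgeR, adjusted p = 0.350 and 0.241), and DESeq2 called both (adjusted p = 0.00133 and 0.000375). Pramef12 had 25.7 and 39.1 CPM in Epi embryos, against 0.51 to 2.87 CPM in PrE embryos. Of the 4 other MORC genes, 3 were tested and edgeR called 0 (3 values at an unadjusted p under 0.05, 2 calls by DESeq2). Morc2a and Morc3 had median RPRT of 33.6 and 24.2 in Epi cells and Morc4 was at 0 counts in every ICM and TE embryo.

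Among 6 other Dppa and KH-domain genes, edgeR called 0 in the 4 comparisons, with 10 values at an unadjusted p under 0.05, DESeq2 made 6 calls and limma-voom 1. Ooep and Khdc3, which belong to the subcortical maternal complex of the oocyte, had median RPRT of 168 and 102 in Epi, 50.6 and 7.77 in PrE, 58.6 and 79.6 in ICM and 15.3 and 37.8 in TE cells. Khdc1a was at 0.19 to 78.3 CPM in ICM embryos, against 169 to 236 CPM in TE embryos. Dppa1, singled out after its values were seen, had 0 to 44.4 CPM in ICM embryos against 121 to 245 CPM in TE embryos (-3.52 ± 1.34, SE, edgeR, adjusted p = 0.130, and 0.0213 by DESeq2), and no count in any E4.0 embryo.

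Germline genes with methylation-sensitive promoters were 38, of which 30 were tested. Between ICM and TE 2 passed by edgeR (9 by DESeq2, 2 by limma-voom), both higher in ICM, beside 2.14% of all genes called higher. The list median was 4.79 against 0.70 for all genes. Each TE sum was 1 cell, and the filter could keep a gene near 0 in TE through its counts in other classes. Large list values had wide errors, such as 8.88 ± 4.31 (SE) for Mael and 10.2 ± 4.48 for Brdt. The list median is therefore a description. Stk31, a Tudor-domain gene of germ cells, had 5.93 to 71.2 CPM in ICM embryos against 0 to 0.90 in TE embryos (6.86 ± 1.52, SE, edgeR, adjusted p = 0.0225), and Piwil2, a PIWI protein of the piRNA pathway, 0.29 to 29.2 against 0.27 to 0.41 CPM (5.28 ± 1.48, adjusted p = 0.0476). Stk31 kept its call in 17 of 17 alternatives (8.79 without TE embryo 5). Piwil2 lost its call in 12 of 18 (adjusted p between 0.00132 and 0.350 over all of them). Among these losses was the removal of embryo 2, 4, 5, 8, 9, 10, 12 or 13, where embryo 4 took out a TE and an ICM sum together. Piwil2 was also the only 1 of 7 tested piRNA and retroelement genes to pass. In the comparisons among Epi, PrE and ICM, edgeR called 0 germline genes, with 1, 7 and 4 at an unadjusted p under 0.05 in Epi against PrE, Epi against ICM and PrE against ICM. DESeq2 called 2, 3 and 2 of them there and limma-voom 1, 4 and 2. Of the piRNA genes edgeR called 0 there, with 0, 2 and 0 at an unadjusted p under 0.05, DESeq2 called 0 and limma-voom 0, 2 and 1.

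Of 13 DNA methylation and demethylation genes, 12 were tested. Dnmt1, the maintenance methyltransferase, was higher in ICM (38.9 to 169 CPM) than in TE (0.20 to 18.4 CPM) by 3.86 ± 1.02 (SE, edgeR, adjusted p = 0.0403). That call was lost in 8 of 18 alternatives (adjusted p between 0.000443 and 0.322), with a value of 6.57 without embryo 4, and among the losses were the removal of TE embryo 5 or of ICM embryo 8, 9, 10, 12 or 13. All 12 had positive values between ICM and TE, as did 61.4% of all genes, with a median of 2.30 against 0.70 for all genes. Dnmt3b (0.61), Tet2 (0.53), Trim28 (0.36) and Dnmt3l (0.31) were below the median gene. As for the germline genes, each TE sum was 1 cell and the list median is a description. In the other comparisons edgeR called 0 (1, 1 and 0 at an unadjusted p under 0.05 in Epi against PrE, Epi against ICM and PrE against ICM, where DESeq2 called 0 and limma-voom 1, 2 and 2). Genes of the 2-cell embryo linked to Dppa2 and Dppa4 were mostly at or near 0. Of 21, 20 were counted and 8 tested, edgeR called 0 (7 values at an unadjusted p under 0.05 over the 4 comparisons, 3 calls by DESeq2 and 0 by limma-voom), and the most abundant by mean was Sp110, with 0.07 to 3.27 CPM in Epi, 0.14 to 4.91 in PrE, 5.52 to 87.7 in ICM and 7.57 to 198 in TE embryos, followed by Gm8300 and Gm5662, which had median RPRT of 1.09 and 0.53 in ICM cells.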

How the data were processed

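Cells were amplified and sequenced as poly(A) RNA one by one, and classes and embryos of the cells were taken from the study's supplementary list, matched by cell title. The authors aligned reads to both parental genomes with TopHat2 2.1.0 and deposited raw read counts per gene made with HTSeq 0.6.1. The authors also deposited RPRT values, a signal scaled to the retrotranscribed length within about 3 kb of the 3′ end and to the mapped reads of each cell, and allelic ratios, a fraction of paternal over paternal and maternal reads. How reads with several places were counted is not given in the sources used here. Here, counts were summed to 15 sums of embryo and class, because cells of 1 embryo are not replicates. All 15 entered 1 model in edgeR 4.0.16 (R 4.3.3): filterByExpr, TMM scaling, quasi-likelihood F test, and Benjamini-Hochberg adjustment over 12599 genes with a threshold of 0.05. SE is the log2 fold change divided by the root of F. The fit was also run on simulated counts with the same spread for every gene and no link between sums of an embryo. That run does not measure the error in sums of amplified single cells. Alternatives used DESeq2 1.42.0, limma 3.58.1 and other choices given at the end. The correlation of sums from the same embryo was 0.187 in limma, which embryos 4 and 14 supply as pairs. No cell's counts were identical to another's. Named genes were all 7 members, the 3 tested genes most like each by Pearson r of log2(CPM + 1), and from each list the genes that passed, up to 4, or the 3 most abundant. Members and lists were chosen with earlier results of these data known. Counting intervals do not cover amplification error.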

Additional observations from a re-analysis of the deposited data

Results flagged for a closer look

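In the 10 Epi cells, Dppa4 had 1 cell far from the others, at an RPRT of 118 while the other 9 had 275 to 388 (gap over range 0.71 on the log2 scale, limit 0.466), and the same cell had an allelic ratio of 0.990. In the Morc1 ratio, 1 of 10 Epi cells stood apart at 0.0613 (gap over range 0.469, limit 0.466). Over the 19 groups of values searched, chance alone would set apart a value in about 1 in 20.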

How the results depend on the processing

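Of 24 log2 fold changes of the 6 tested genes, 18 kept their direction under every alternative run and 12 also kept their side of the threshold. Epi against PrE called 1 member, Morc1, by limma-voom with embryo as a block (paired cells of embryos 4 and 14) and without, in place of 0. Epi against ICM called 1, Pramel7, by DESeq2, and PrE against ICM called 1, Pramel6, by limma-voom with and without the block. ICM against TE called 2 by DESeq2 (Morc1 and Pramel6), 2 by library size scaling and 2 with no filter on low counts (Morc1 and Dppa2 in both), 0 with cells of the earlier study alone, and between 0 and 2 when 1 embryo was left out, against 1. The other comparisons called 0 members whichever embryo was left out. The cause of these differences was not tested. Stk31 was filtered out with cells of the earlier study alone, so 17 alternatives were run for it.

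Directions turned as follows. Pramel6 in Epi against PrE was 3.399 by limma-voom and 3.77 with the block, and between -2.04 and 2.15 with 1 embryo or PrE cell 59 left out, an alternative chosen after seeing the data. Dppa5a in Epi against ICM was 0.25 by limma-voom and 0.33 with the block, and between -0.36 and 0.0081 with 1 embryo left out. With 1 embryo or cell 59 left out, Dppa5a ran between -0.34 and 0.95 in Epi against PrE and between -1.15 and 0.052 in PrE against ICM, Pramel7 between -4.17 and 0.31 and Morc1 between -4.86 and 0.16 in PrE against ICM. The block changed no other member's call or direction.

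Genes called over all genes depended on the tool. DESeq2 called 419 in Epi against PrE, 513 in Epi against ICM, 349 in PrE against ICM and 2723 in ICM against TE, against 0, 1, 0 and 533 by edgeR, and limma-voom called 239, 240, 251 and 429. ICM against TE gave 159 to 971 with 1 embryo left out and 8 with the earlier study alone. Counts of cells above an RPRT of 1 stayed within 1.5 times in 51 of 56 other limits, and the exceptions were Morc1 in PrE (2 of 13 above 4) and TE (0 of 3 above 4) and Pramel7 in Epi (1 above 4, 5 above 0) and TE (3 above 0). Using all deposited ratios moved 23 of 23 median ratios by less than 1 SD.

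With 2 to 7 embryos a class, several of them 1 cell, a p that misses the threshold does not show equal levels. All TE cells came from an earlier experiment, and only 3 ICM cells share that source, so the comparison within it rests on 3 cells of each class.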
